A study of Mus musculus with 4 samples.

Results

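Of the 98 genes on the RT-qPCR panel, 5 encode the type 2 cytokines *IL-4*, *IL-5* and *IL-13* and the eosinophil chemokines *CCL-11* and *CCL-13*, and their mRNA was followed through whole lungs of 4 groups of mice. Members were chosen by name, and each was found among the numbered assays through the fold changes that the study printed beside gene names. All mice were female C57BL/6J animals aged 6 to 8 weeks that had an injection into the lung, of LLC cells or of the vehicle DPBS, each in Matrigel, so that every group carries an injected lung. LLC, Lewis lung carcinoma, is a single mouse cancer line of the same strain background. The groups are HBSS + vehicle (the controls), S100A8 + vehicle, HBSS + LLC and S100A8 + LLC. S100A8, a calcium-binding protein of myeloid cells, was given intranasally at 10 µg on Days 3, 6 and 9, its salt solution HBSS in its place, and lungs were collected on Day 10. The comparisons ask how S100A8 and LLC cancers, alone and together, altered lung mRNA. Each group is 1 deposited mean Ct per gene over 4 to 5 mice, so there is no SD, no n and no test for any value that follows, and a spread between mice cannot be stated.

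IL-4, IL-5 and IL-13 are made mainly by T helper 2 cells and group 2 innate lymphoid cells, with mast cells, basophils and eosinophils as further sources. IL-4 and IL-13 act through receptors that share the IL-4 receptor alpha chain and the transcription factor STAT6, whereas IL-5 drives the growth, release and survival of eosinophils. CCL-11, also called eotaxin, draws eosinophils through the receptor CCR3. CCL-13 is the name of a human chemokine (MCP-4) that binds CCR2 and CCR3. In the lung this arm of immunity is best known from allergic airway disease and worm infection.

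In RefSeq for the mouse build GRCm38.p6, 4 of the 5 members were found by symbol (*Il4*, *Il5*, *Il13* and *Ccl11*), all on chromosome 11. No mouse gene there has *Ccl13* as its symbol or synonym, and the transcript that the assay named *CCL-13* detects is not given in the sources used here, so its values are given under the name of the assay. *Il4* and *Il13* are adjacent protein-coding genes, and *Rad50* lies between *Il13* and *Il5*. Since the 3 neighbours differed so much in these lungs, the 250 bases upstream of each start are shown, from the same RefSeq build. They were searched on both strands for GATA-type motifs (the letters GATA with A or T before them and A or G after them), the kind of site bound by GATA3, and for TTC and GAA separated by 4 bases, the kind bound by STAT6. Capitals mark every match. The sequences run 5′ to 3′ along the strand of the gene, *Il13* at chr11:53634703-53634952 (minus strand), *Il4* at chr11:53618666-53618915 (minus strand) and *Il5* at chr11:53720544-53720793 (plus strand).
Il13: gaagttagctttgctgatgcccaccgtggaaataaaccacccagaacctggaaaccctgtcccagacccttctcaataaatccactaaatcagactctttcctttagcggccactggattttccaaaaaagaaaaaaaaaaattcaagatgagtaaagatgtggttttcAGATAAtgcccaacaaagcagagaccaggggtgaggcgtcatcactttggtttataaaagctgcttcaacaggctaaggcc
Il4: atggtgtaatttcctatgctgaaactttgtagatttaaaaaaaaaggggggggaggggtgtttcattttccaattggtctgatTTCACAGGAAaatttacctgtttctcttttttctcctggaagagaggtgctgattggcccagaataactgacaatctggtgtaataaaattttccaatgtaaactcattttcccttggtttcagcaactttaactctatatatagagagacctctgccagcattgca
Il5: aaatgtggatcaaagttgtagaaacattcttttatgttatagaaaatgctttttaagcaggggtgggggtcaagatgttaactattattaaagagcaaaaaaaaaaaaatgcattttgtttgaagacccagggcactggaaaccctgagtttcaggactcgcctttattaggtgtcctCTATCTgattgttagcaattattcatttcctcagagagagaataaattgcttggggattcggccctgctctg
The *Il13* sequence holds 1 GATA-type motif (AGATAA, 81 to 76 bases before the start). The *Il5* sequence also holds 1, AGATAG on the other strand, 72 to 67 bases before the start. The *Il4* sequence holds none and has 1 STAT6-type motif, 167 to 158 bases before the start. Of 32851 mouse promoters of this length, 26.5% hold a GATA-type motif and 5.85% a STAT6-type motif. These are matches of letters, not sites of binding, and no factor was measured at them.

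Ct is the cycle at which a PCR product crosses a set threshold, so a high Ct stands for little template and 1 cycle fewer for about 2-fold more. The authors set a cut off of 38 cycles. The mean of the 2 housekeeping assays was 18.3 cycles in HBSS + vehicle and stood 1.44 cycles later in S100A8 + vehicle, 0.34 earlier in HBSS + LLC and 0.99 later in S100A8 + LLC. The housekeeping assays did not move together. In HBSS + LLC the first was 1.26 cycles later than in the controls and the second 1.94 cycles earlier. Values after a log2 fold change are therefore its range over 4 references, namely both housekeeping assays, each alone and the median of the panel. Where no range stands, the value is that with both housekeeping assays. Panel shares were likewise counted with both housekeeping assays only. Another reference moves every gene by the same amount, so counts with another reference have no panel share beside them. Ratios between members and ranks within the panel do not depend on the reference. *AGER* and *RAGE*, names for a receptor that marks alveolar epithelium, were read at 16.1 to 18.1 cycles in the 4 groups, so that lung epithelium was well detected. In whole lung, fewer cells of a type and less mRNA per cell cannot be told apart.

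*IL-4*, which directs T helper 2 differentiation and antibody class switching, was the least detected member except in HBSS + LLC, where *IL-13* was later. Lungs of HBSS + vehicle mice gave a mean Ct of 38 and those of S100A8 + vehicle mice 37.2, while LLC cancers brought it to 30.7 with HBSS and 36 with S100A8. The control mean sits at the cut off, so that fold changes against it count 38 cycles as the control level. The means of both S100A8 groups lie close to the cut off and do not show how many of the 4 to 5 mice reached it, so that their fold changes are not bounds in either direction. "At least" is written only of HBSS + LLC, with its mean of 30.7 taken as it stands. HBSS + LLC stood apart, with *IL-4* at least 125-fold above the controls (log2 at least 6.97, 5.37 to 8.57 over the references). With every Ct above 35 set to 35, the same difference was still at least 15.7-fold. The normalized level came next in S100A8 + LLC, then in S100A8 + vehicle and last in HBSS + vehicle, in the same order under each of the 4 references. The step between the S100A8 groups was small, 0.81 on the log2 scale, and both means were past 35 cycles.

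*IL-13*, the cytokine behind mucus production and airway hyperreactivity, ran the other way. The controls were read at a mean Ct of 27.1 and S100A8 + vehicle at 30.7, with HBSS + LLC at 32.6 and S100A8 + LLC at 32.4. The controls had the highest level, S100A8 + vehicle the next, and the LLC groups the lowest, an order that held under each of the 4 references and is that of *IL-4* reversed. In HBSS + LLC *IL-13* was 58.9-fold below the controls (log2 -5.88, -7.48 to -4.28 over the references), the lowest value of the 98 genes. In S100A8 + LLC it was 20.5-fold below (log2 -4.36, -5.10 to -3.62), again the lowest of the 98.

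*IL-5*, the eosinophil growth factor, was well detected, at 26 cycles on average in HBSS + vehicle and 25.1 in HBSS + LLC, against 29.4 in S100A8 + vehicle and 28.1 in S100A8 + LLC. Both groups that received S100A8 read later than both that received HBSS. On the normalized scale HBSS + LLC stood 0.57 above HBSS + vehicle in log2, a step that ranged from -1.03 to 2.17 over the references, so these neighbours have no fixed order. S100A8 + LLC and S100A8 + vehicle followed in that order under each of the 4 references.

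*CCL-11*, the eotaxin, was read at 24.1 cycles in HBSS + vehicle and 24.6 in HBSS + LLC, and at 26.8 in S100A8 + vehicle and 25.8 in S100A8 + LLC. The *CCL-13* assay gave 23 cycles in HBSS + vehicle and 24.1 in HBSS + LLC, and 24.9 in S100A8 + vehicle and 25.1 in S100A8 + LLC. For both chemokines the controls had the lowest Ct of the 4 groups, within a range of 2.75 cycles for *CCL-11* and 2.06 for *CCL-13*. *IL-4* covered 7.31 cycles, *IL-13* 5.54 and *IL-5* 4.36. These ranges are of Ct before normalization. After it they were 1.31 cycles for *CCL-11*, 1.41 for *CCL-13*, 6.97 for *IL-4*, 5.88 for *IL-13* and 2.58 for *IL-5*. The order of the groups changed with the reference for both chemokines.

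**Figure D1:**
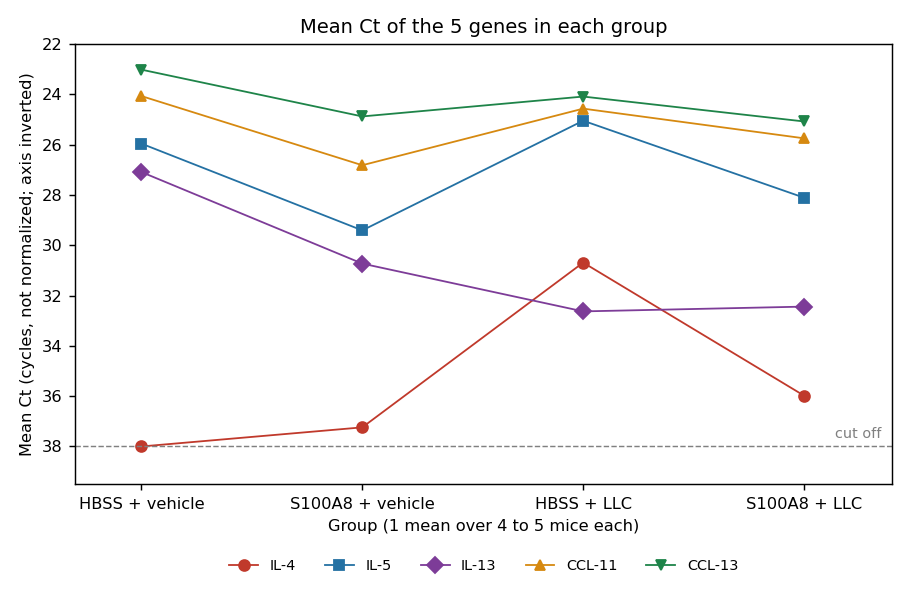
Mean Ct (cycles, inverted axis, not normalized) of the 5 genes in the 4 groups, where each point is 1 mean over 4 to 5 mice and the dashed line is the cut off of 38 cycles. *IL-4* is earliest in HBSS + LLC at 30.7 cycles, where *IL-13* is latest at 32.6, and *IL-5* is later in both S100A8 groups.

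With S100A8 alone, most type 2 genes were lower. Of the 5 members, 1 was above HBSS + vehicle by more than 2-fold and 3 were below it by as much, while 27.8% of the 97 genes compared were higher and 17.5% lower by this measure (45.4% either way). *IL-13* was 4.59-fold lower (log2 -2.20, -2.84 to -1.56 over the references), *IL-5* 4.03-fold lower (log2 -2.01, -2.65 to -1.37) and *CCL-11* 2.48-fold lower (log2 -1.31, -1.95 to -0.67). *CCL-13* lay within 2-fold (log2 -0.42, -1.06 to 0.22). *IL-4* came out 4.59-fold higher (log2 2.20, 1.56 to 2.84), on means of 37.2 and 38 cycles, a difference of 0.76 cycles before normalization. With Ct capped at 35, or with means of at most 35 cycles in both groups, no member was higher. The median log2 fold change of the members was -1.31, beside 0.34 for all genes. From the lowest value upwards, *IL-13* was at place 7 of 97, *IL-5* at 9 and *CCL-11* at 15. The T cell kinase *LCK* was also lower (log2 -1.63, -2.27 to -0.99), whereas *KIT*, a receptor of mast cells and progenitors, was not (log2 0.73, 0.09 to 1.37). The neutrophil and monocyte genes *S100A8* (log2 1.20, 0.56 to 1.84) and *S100A9* (log2 1.06, 0.42 to 1.70) were higher by more than 2-fold, though not under every reference. Their part in the result was not tested.

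With LLC cancers alone, the 3 cytokines parted. In HBSS + LLC 1 member was more than 2-fold higher than in HBSS + vehicle and 2 were lower, where 26.5% of the 98 genes were higher and 21.4% lower (48.0% either way). *IL-4* was at least 125-fold higher and at this value had place 6 from the top. *IL-13* was 58.9-fold lower, and *IL-5* lay between them within 2-fold. Its value passed 2-fold upwards with the first housekeeping assay as reference and downwards with the second. *CCL-13* was 2.66-fold lower, but its log2 value of -1.41 became 0.19 with the first housekeeping assay alone. *CCL-11* was within 2-fold (log2 -0.84, -2.44 to 0.76). The median of the members was -0.84, against -0.19 for the panel. *LCK* was 5.17-fold lower in these lungs (log2 -2.37, -3.97 to -0.77), and *KIT* was within 2-fold (log2 0.50, -1.10 to 2.10), and neither was tested as a source of the difference.

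S100A8 + LLC was set against the same controls as the groups above, so these comparisons are not independent of each other. Here 1 member was more than 2-fold higher and 3 lower, beside 22.4% and 18.4% of the 98 genes (40.8% either way). *IL-4* came out 8.06-fold higher (log2 3.01, 2.27 to 3.75) on a mean of 36 cycles, and with Ct capped at 35 no member was higher. *IL-13* was 20.5-fold lower, *IL-5* 2.23-fold lower (log2 -1.16, -1.90 to -0.42) and *CCL-13* 2.10-fold lower (log2 -1.07, -1.81 to -0.33). With the first housekeeping assay alone the last 2 came within 2-fold, as did *CCL-13* at 1.9-fold per cycle (log2 -0.99). *CCL-11* was within 2-fold (log2 -0.69), and its range of -1.43 to 0.05 crossed 0 and passed 2-fold under 2 of the 4 references. The median of the members was -1.07, that of all genes -0.22.

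**Figure D2:**
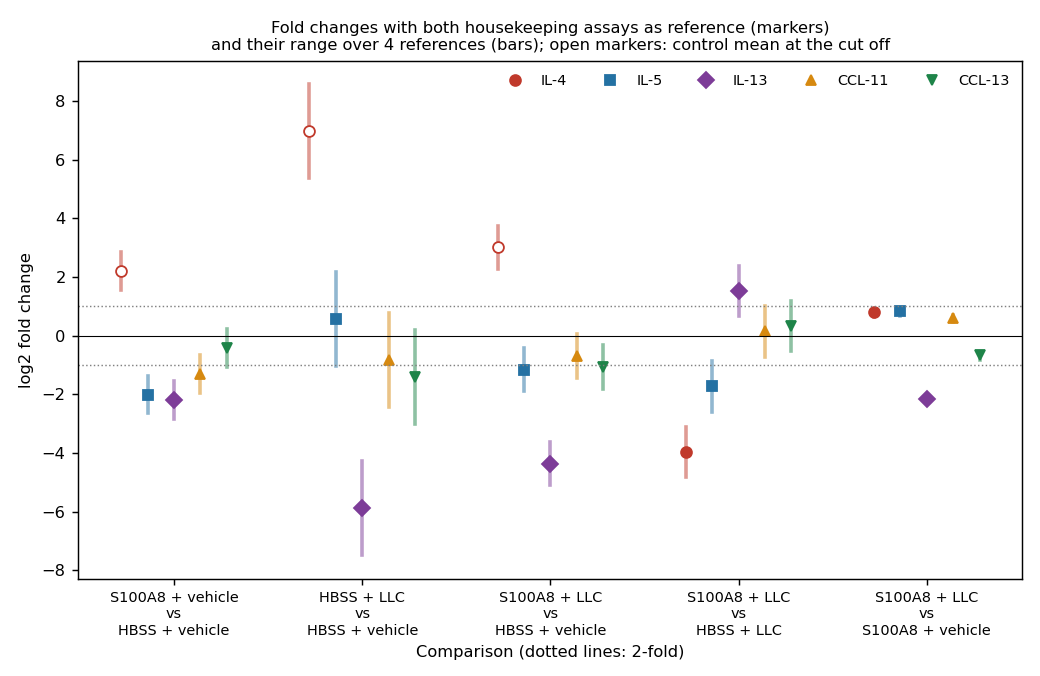
log2 fold change of the 5 genes in the 5 comparisons, with markers for the mean of both housekeeping assays as reference, bars for the range over 4 references, open markers for values against a mean at the cut off and dotted lines at 2-fold. The *IL-4* and *IL-13* bars stay on one side of 0 in every comparison, while the *IL-5*, *CCL-11* and *CCL-13* bars cross 0 in HBSS + LLC against HBSS + vehicle.

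Among lungs with LLC cancers, S100A8 went with less *IL-4* and *IL-5* and more *IL-13*. Compared with HBSS + LLC, 1 member was more than 2-fold higher in S100A8 + LLC and 2 were lower, where 11.2% of the 98 genes were higher and 15.3% lower. *IL-4* was 15.6-fold lower (log2 -3.96, -4.82 to -3.10), the second lowest value on the panel. With every Ct above 35 set to 35 its log2 value was -2.98. *IL-5* was 3.32-fold lower (log2 -1.73, -2.59 to -0.87), at place 8 from the lowest and level with *COX-2*. *IL-13* was 2.87-fold higher (log2 1.52, 0.66 to 2.38), although its mean Ct differed by only 0.19 cycles (32.6 and 32.4), so that the difference comes from the housekeeping assays being later in S100A8 + LLC. *CCL-11* (log2 0.15, -0.71 to 1.01) and *CCL-13* (log2 0.34, -0.52 to 1.20) lay within 2-fold. With the second housekeeping assay alone both passed 2-fold upwards and *IL-5* no longer passed it. That left 3 members higher and 1 lower, and with the first alone 0 were higher and 2 lower. The panel shares above hold for both housekeeping assays together, so neither of these counts has a share beside it. The median of the members was 0.15 and that of the panel -0.06. *KIT* was 2.36-fold lower in the same comparison (log2 -1.24, -2.10 to -0.38), *LCK* was within 2-fold (log2 0.51, -0.35 to 1.37), and their part was not tested.

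Between the groups that received S100A8, LLC cancers went with a further lowering of *IL-13*. It was 4.47-fold lower in S100A8 + LLC than in S100A8 + vehicle (log2 -2.16, -2.33 to -2.06), the lowest of the 98 genes, and the range is narrow because both housekeeping assays moved by similar amounts between these groups. No member was more than 2-fold higher and 1 was lower, where 12.2% of the panel was higher and 29.6% lower (41.8% either way). *IL-4* (log2 0.81, 0.64 to 0.91), *IL-5* (log2 0.85, 0.68 to 0.95) and *CCL-11* (log2 0.62, 0.45 to 0.72) lay above the panel median of -0.44, and *CCL-13* (log2 -0.65, -0.82 to -0.55) below it.

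**Figure D3:**
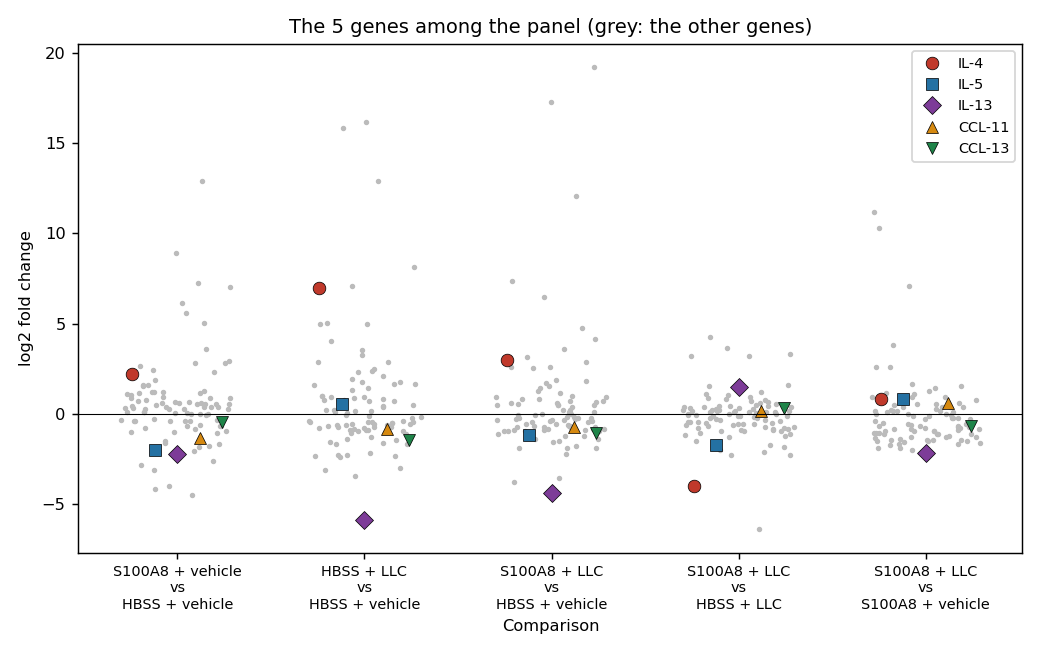
log2 fold change of all panel genes with a value in the 5 comparisons, with the 5 members in colour and the other genes in grey (spread sideways only for legibility). *IL-13* is the lowest point in the 3 comparisons of LLC lungs with lungs that had vehicle, and *IL-4*, whose HBSS + vehicle mean is at the cut off, is second lowest in S100A8 + LLC against HBSS + LLC.

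For *IL-4* and *IL-13* the computed effect of S100A8 had opposite signs in lungs without cancers and lungs with them. For *IL-4* the log2 effect was 2.20 without cancers, on means of 37.2 and 38 cycles, and -3.96 with them, a difference of -6.16 (-7.66 to -4.66 over the references). With Ct capped at 35 there is no value without cancers, so that its sign there rests on means near the cut off. For *IL-13* it was -2.20 without and 1.52 with, a difference of 3.72 (2.22 to 5.22). With the first housekeeping assay alone the value with cancers was 0.66, within 2-fold. Opposite directions alone were common, in 58 of 97 genes (59.8%), and opposite effects that were both more than 2-fold were found in 7 of 97 (7.22%), these 2 members among them. *IL-5* was lower with S100A8 in both settings, -2.01 without and -1.73 with cancers, and the difference of 0.28 ranged from -1.22 to 1.78. *CCL-11* went from -1.31 to 0.15 and *CCL-13* from -0.42 to 0.34, and the sign of either difference depended on the reference. None of these differences could be tested.

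**Figure D4:**
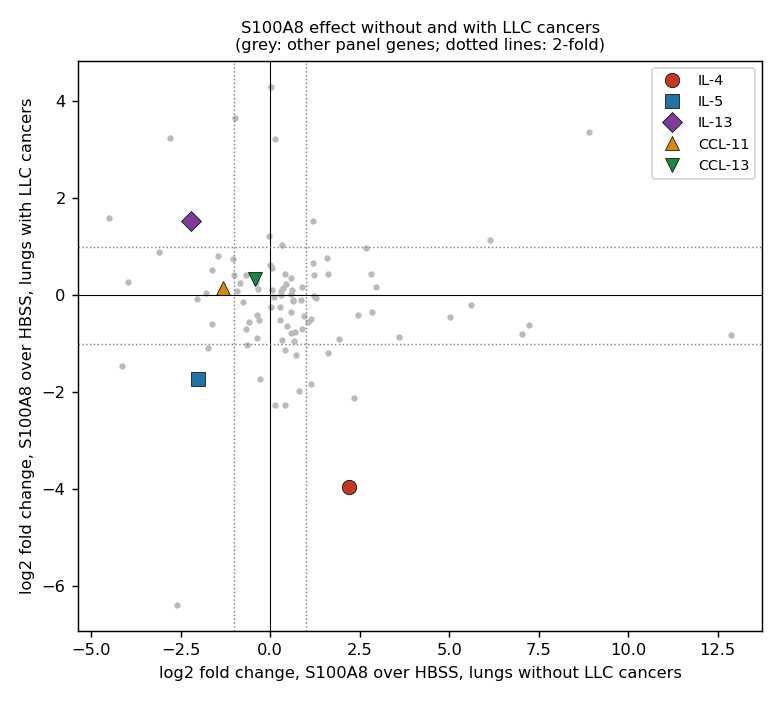
log2 fold change of S100A8 over HBSS in lungs without LLC cancers (horizontal axis) and with them (vertical axis), for panel genes with a value in both comparisons, with the 5 members in colour and dotted lines at 2-fold. *IL-4*, whose control mean is at the cut off, lies at 2.20 and -3.96, *IL-13* at -2.20 and 1.52 and *IL-5* at -2.01 and -1.73.

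Ratios between members, in which the reference cancels, show how far the neighbouring genes separated. In HBSS + LLC the ratio of *IL-4* to *IL-13* was at least 7383-fold above that in HBSS + vehicle, in S100A8 + LLC 165-fold and in S100A8 + vehicle 21.1-fold. With Ct capped at 35 the first was 923-fold, and the others have no such value, since they rest on *IL-4* means of 36 to 38 cycles. From HBSS + LLC to S100A8 + LLC the ratio was 44.6-fold lower. *IL-5* and *IL-13* moved by nearly the same amount with S100A8 alone, their ratio being 1.14 times that of the controls. In HBSS + LLC their ratio was 87.4-fold above the controls and in S100A8 + LLC 9.19-fold above. Against the controls the ratio of *CCL-11* to *CCL-13* differed on the log2 scale by -0.89 in S100A8 + vehicle, by 0.57 in HBSS + LLC and by 0.38 in S100A8 + LLC.

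Other genes that type 2 cytokines are known to act on, or that act beside them, were listed as *ARG1*, *IRF-4*, *VCAM-1*, *ICAM-1*, *GM-CSF* and *CCL-5*. Of these 6, the number more than 2-fold higher than in HBSS + vehicle was 2 in each of the other groups, and these were *ARG1* and *ICAM-1*. The number lower was 0 in S100A8 + vehicle and 1 in each LLC group, which was *IRF-4*. Over the whole panel 27.8% of genes were higher and 17.5% lower with S100A8 alone, 26.5% and 21.4% with LLC cancers alone and 22.4% and 18.4% with both, so that counts of this size over 6 genes are near the panel's. The counts for *ARG1* and *ICAM-1* held under each of the 4 references, and those for the other genes did not. In HBSS + LLC the 6 split into 4 higher and 0 lower with the first housekeeping assay alone and 2 higher and 4 lower with the second. These counts have no panel share beside them. *ARG1*, the arginase of macrophages activated by IL-4 and IL-13, came up at 31 cycles in the controls, at 25.7 in HBSS + LLC, 26.9 in S100A8 + vehicle and 27.3 in S100A8 + LLC. That is 31.6-fold, 48.5-fold and 27.3-fold above the controls, in groups where *IL-4* ran from 30.7 to 37.2 cycles and *IL-13* was lower than in the controls. *ICAM-1*, an adhesion molecule for leukocytes, went from 32.5 cycles in the controls to between 19.2 and 21.4 in the other groups, or 4300-fold to 7643-fold higher. The folds of *ICAM-1* and *ARG1* rest on 1 mean per assay that was late only in the controls. Whether that mean holds for the mice behind it cannot be told. *VCAM-1*, which eosinophils bind through an integrin, lay within 2-fold in the 5 comparisons (log2 -0.58 to 0.23) with both housekeeping assays as reference only, since in HBSS + LLC its value of 0.20 was 1.80 with the first alone and -1.40 with the second, and in S100A8 + vehicle it was -1.22 with the second. *IRF-4*, a transcription factor of T helper 2 cells and activated macrophages, was below the controls by 2.97-fold in HBSS + LLC and by 2.01-fold in S100A8 + LLC, but with the first housekeeping assay alone the log2 values of -1.57 and -1.01 became 0.03 and -0.27. At 1.9-fold per cycle the value in S100A8 + LLC was also within 2-fold. Between S100A8 + LLC and HBSS + LLC none of the 6 passed 2-fold, where 26.5% of the panel did, and the median was -0.32. Yet 4 were lower with the first housekeeping assay alone, 1 was higher with the second and 2 were lower with the panel median. In S100A8 + LLC against S100A8 + vehicle 0 were higher and 2 lower, beside 12.2% and 29.6% of the panel, so that these counts are near the panel's. The lower genes were *GM-CSF* (log2 -1.88, -2.05 to -1.78), which sustains eosinophils and macrophages, and *IRF-4* (log2 -1.07, -1.24 to -0.97).

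The other CC chemokines on the panel were *CCL-2*, *CCL-3*, *CCL-4* and *CCL-5*. Of these 4, none was more than 2-fold higher in the 5 comparisons with both housekeeping assays as reference. Over the panel 11.2% to 27.8% of genes were higher in these comparisons. Against the controls 1 of the 4 was lower in each group, beside 17.5% to 21.4% of the panel. In HBSS + LLC 2 were higher with the first assay alone and all 4 lower with the second, counts that have no panel share beside them. *CCL-2*, a monocyte attractant whose gene lies near *Ccl11* with *Ccl7* in between, was 2.77-fold lower than the controls in S100A8 + vehicle, 4.92-fold lower in HBSS + LLC and 2.81-fold lower in S100A8 + LLC. It was below the controls under each of the 4 references, though by less than 2-fold with the first housekeeping assay alone (log2 -0.83, -0.70 and -0.75). *CCL-11* was 2.48-fold lower in S100A8 + vehicle, and in both LLC groups its direction depended on the reference. *CCL-3* was 2.45-fold lower in S100A8 + LLC than in S100A8 + vehicle (log2 -1.29, -1.46 to -1.19).

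Markers of other cells on the panel covered T cells (*LCK*), mast cells and progenitors (*KIT*), neutrophils and monocytes (*S100A8*, *S100A9*), epithelium (*CDH1*, *RAGE*, *AGER*), endothelium and alveolar type 1 cells (*CAV1*) and dividing cells (*MKI67*). None of *EPX*, *PRG2*, *SIGLECF*, *CCR3* and *IL5RA*, which define eosinophils, is on the panel, nor is *GATA3*, *STAT6*, *CD3E* or *IL1RL1*, so eosinophils and type 2 lymphocytes themselves were not measured. Of the 9 marker assays, 3 were more than 2-fold higher and 1 lower in S100A8 + vehicle, 2 and 1 in HBSS + LLC, and 1 and 1 in S100A8 + LLC, each against HBSS + vehicle. The panel shares given above for the pathway genes apply here too. The lower one was *LCK* in each case, with a mean Ct of 20.8 in the controls and of 22.8 to 23.8 in the other groups. *CDH1* was the highest, at 32.7-fold, 16.8-fold and 12.3-fold above the controls, and passed 2-fold under each of the 4 references. The other epithelial assays did not follow it. *AGER* was at log2 0.87 with S100A8 alone, -0.74 with LLC cancers alone and -0.85 with both, and *RAGE* at 0.90, -0.39 and -0.22. The other marker counts moved with the reference, in HBSS + LLC to 7 higher and 0 lower with the first housekeeping assay alone and to 1 higher and 7 lower with the second. No panel share was counted with either assay alone. All 9 were detected in every group, at 25.2 cycles or earlier. In S100A8 + LLC against S100A8 + vehicle 5 of the 9 were lower, where 29.6% of the 98 genes were. These were *S100A9*, *AGER*, *KIT*, *CDH1* and *RAGE*, of which *AGER* and *RAGE* name 1 receptor. Their part in the member values was not tested.

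The panel genes whose profile over the 4 groups was most like that of each member were found from the root mean square difference in Ct after each gene was centred on its own mean, over 97 other genes. This is a description of 4 points per gene. Over the 98 genes the median distance to the nearest profile was 0.21 cycles. *IL-13* had the most isolated profile of the members, 1.37 cycles from its nearest, *CXCL-5*, followed by *LCK* and *CCL-2* at 1.42 and 1.47. Only 3 panel genes were farther from any other. *IL-4*, with its control value at the cut off, was 0.86 cycles from *IFN-γ*, the T helper 1 cytokine, whose mean Ct was 31.2, 30.3, 25.9 and 29.4 in the same order of groups. *HIF-1α* and the transporter *CAT2* followed at 1.22 and 1.31. *IL-5* was 0.31 cycles from *PTGS2*, then 0.59 from *IL-6* and 0.61 from *COX-2*, which names the same gene as *PTGS2*. Against the controls *PTGS2* and *COX-2* differed in S100A8 + vehicle, at log2 -1.75 and -0.28. They were close in S100A8 + LLC, at -0.33 and -0.37. *CCL-11* lay 0.14 cycles from *HGF*, 0.23 from *IGF-1* and 0.26 from *CXCR4*. *CCL-13* lay 0.20 cycles from *CCL-5*, 0.22 from *MT1* and 0.24 from *IRF-4*. Among the members themselves *CCL-11* and *CCL-13* were the closest pair (0.56 cycles) and *IL-4* and *IL-13* the farthest (4.67 cycles).

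**Figure D5:**
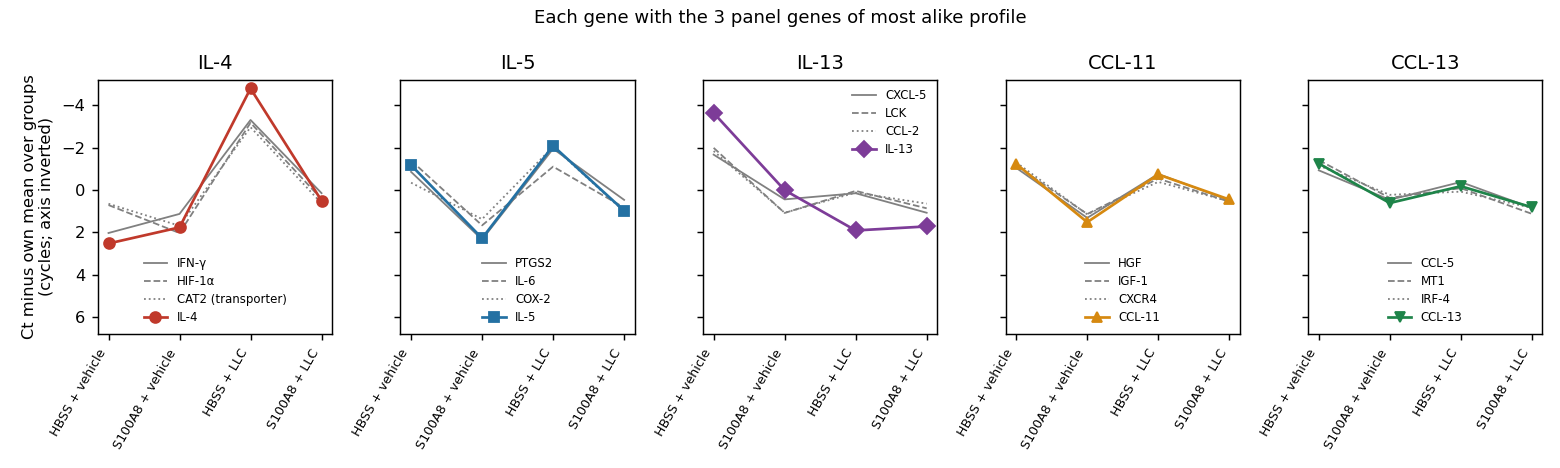
Ct minus each gene's own mean over the 4 groups (cycles, inverted axis), for each member in colour and the 3 panel genes of most alike profile in grey. The grey lines lie close to *CCL-11* and *CCL-13*, within 0.26 cycles in root mean square, while *IL-13* falls in both LLC groups by more than any gene drawn with it.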

How the data were processed

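RNA of whole lungs was reverse-transcribed and 98 genes and 2 housekeeping genes were measured by RT-qPCR with SYBR Green. The labels name a LightCycler and the study's methods a QuantStudio instrument. The authors averaged Ct over 4 to 5 mice, and the deposited Ct values are not normalized, with 1 mean per assay and group. The authors also deposited a fold change (ratio) against HBSS + vehicle for each assay, used here only as a key. Assays are numbered, and all 98 genes and the groups were identified by matching 294 deposited fold changes to those the study printed by gene (largest difference 0.000269%). The 2 assays left over were taken as the housekeeping genes, which the values do not tell apart. Ranges over 4 references are therefore given for member values.

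Log2 fold change was computed as the negative difference between groups in Ct minus the mean housekeeping Ct, and more than 2-fold was called. Where both means were at 38 cycles no value was computed, and where 1 was, it entered as 38. The members and lists were chosen with earlier results of these data known. The genes named are the members, the genes of the listed pathway, chemokine and marker sets and, for each member, the 3 panel genes of most alike profile. Alternatives were each housekeeping assay alone, the panel median, fold thresholds of 1.5 and 3, Ct limits of 30 and 35, Ct capped at 35 and 1.9-fold per cycle. The calculation was tested on simulated cycles before use. Python 3.11.15, numpy 2.4.6, pandas 2.3.3 and matplotlib 3.10.9 were used.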

Additional observations from a re-analysis of the deposited data

Results flagged for a closer look

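For *IL-4* the effect of S100A8 with LLC cancers minus that without them was -6.16 on the log2 scale, and for *IL-13* it was 3.72. In each case the normalized values moved one way in lungs without cancers and the opposite way in lungs with them. The *IL-4* value without cancers rests on means of 37.2 and 38 cycles. For *IL-13* the mean Ct with cancers differed by 0.19 cycles, and with the first housekeeping assay alone the effect with cancers was 0.66, within 2-fold. With 1 mean per group the difference was not tested.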

How the results depend on the processing

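Of 25 member values, 18 kept their direction in every setting tried. The 1 value past 2-fold that reversed was *CCL-13* in HBSS + LLC against HBSS + vehicle, 0.19 on the log2 scale with the first housekeeping assay alone, and with that reference the difference in the S100A8 effect for *CCL-11* also reversed, to -0.04. Of 45 counts of members past the threshold, 36 stayed within 1.5 times the reported one. With means of at most 30 cycles in both groups, which leaves fewer genes, against the controls 2 members differed in S100A8 + vehicle and in S100A8 + LLC and 1 in HBSS + LLC, with 1 in S100A8 + LLC against HBSS + LLC and 0 against S100A8 + vehicle. With the second housekeeping assay alone 5 differed in HBSS + LLC. In S100A8 + LLC against the controls 2 differed with the first housekeeping assay alone and 2 at a threshold of 3-fold, and against S100A8 + vehicle 5 differed at a threshold of 1.5-fold. Panel shares were not counted under these settings, so these counts cannot be set against the panel. With Ct capped at 35 *IL-4* had no value where both means were past 35. No replicate could be left out. No paired analysis was possible because each group is a single averaged value. Depth cannot be stated for averaged Ct, and means near 38 cycles rest on few molecules.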
